A study of Mus musculus with 19 samples.

Results

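The comparison described here asks whether a mutation of Asxl1 changes the same transcripts in blood progenitors and in mature myeloid cells, or changes them in opposite directions. It used 12 of the 19 libraries of the series, all from bone marrow of mice of 18 months. LK cells, which lack lineage markers and carry c-Kit, gave 3 libraries of mutant (MT) and 3 of wild-type (WT) animals. Myeloid cells positive for Cd11b gave 3 MT and 3 WT libraries of the same age. Total RNA was turned into libraries straight after isolation. The labels give the genotype only as MT or WT. They do not name the Asxl1 allele, its promoter or Cre driver, the strain or the sex, and they do not say whether replicates are separate animals, so p-values measure the spread between these libraries, which may be technical. The 7 libraries of young animals were not used in the fit described. For each gene the MT minus WT difference was taken in LK cells and in Cd11b cells on a log2 scale, and the second was subtracted from the first. This difference of differences is called the interaction. It was tested for 13996 of the 14420 genes and 884 of the 1005 transposable element (TE) subfamilies that both cell sets list.

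Asxl1 encodes a scaffold protein of the deubiquitinase complex built on Bap1, and the human gene is often mutated in clonal blood cell expansions and in myeloid neoplasms. Neutrophils form in stages. Promyelocytes make the proteases and the peroxidase of the primary granules, later stages make the proteins of the secondary granules, and mature cells keep the proteins while most primary granule mRNA is lost. The LK fraction holds the precursors of neutrophils, monocytes, red cells and platelets, whereas Cd11b marks the monocytes and neutrophils that come from them.

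The libraries carried the markers of their sort. Itgam, which encodes Cd11b, was at 3241 to 3592 counts scaled to a library of 1000000 (CPM) in Cd11b libraries and at 45.2 to 81.5 in LK libraries. Kit was at 162 to 218 CPM in LK and still at 63.7 to 72 in Cd11b libraries. Cd34, at 130 to 151 CPM in LK cells, was at 0.995 to 3.27 in Cd11b cells. Gene counts per library ran from 31853263 to 68260809. Within each of the 4 groups replicates 2 and 3 were far more alike (chi-square over genes of 3 to 6.53 per degree of freedom) than either was to replicate 1 (14 to 45.9). Their distance still exceeded that of repeated sampling of 1 library, which does not show that they come from separate animals. They were kept as 2 replicates, as labelled. Because so much rests on this, differences are also given within replicate 1 and within replicates 2 and 3, on log2(CPM + 0.1) and with no test.

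The LK and Cd11b responses to the mutation differed for many genes. Of the 13996 genes, 2904 (20.7%) were called for the interaction at an edgeR adjusted p under 0.05. The LK difference lay above the Cd11b difference in 1230 (8.79%) and below it in 1674 (12%). The responses were of unequal size, since 3976 genes (28.4%) were called for MT against WT in LK cells and 190 (1.36%) in Cd11b cells of the same fit. The median size of the difference over all genes was 0.17 in LK and 0.10 in Cd11b cells. Of the 2904 genes, 2572 (18.4% of those tested) had differences of opposite sign, 1097 (7.84%) higher in LK MT and lower in Cd11b MT and 1475 (10.5%) the reverse. A sign says little where one difference is near 0, so a stricter class also asked for an unadjusted p under 0.05 on each side. It held 606 genes (4.33%), 281 higher and 325 lower in LK MT. In 25 genes (0.179%) each difference passed at an adjusted p under 0.05. Of the 63 genes called in both cell sets, 38 moved the same way and 25 opposite ways. MT and WT libraries were fully separated, in opposite directions, for 740 genes (5.29%), and in the same direction for 599.

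These counts depended on the likeness of replicates 2 and 3. With both summed to 1 library per group, 0 genes were called by edgeR for the interaction and 1803 had an unadjusted p under 0.05. Leaving out replicate 2 or 3 of any group left 1129 to 1569 genes called, and leaving out replicate 1 of any group left 3086 to 4168. The stricter class held 307 to 389 genes without a replicate 2 or 3 and 1346 without replicate 1 of the Cd11b WT group. Of the 2904 called genes, 1391 had the same pair of signs in the replicate 1 libraries alone and 2702 in replicates 2 and 3. Of the 606 genes of the stricter class, 445 did so in replicate 1, whose libraries also entered the fit. Their median size was 0.11 in LK and 0.10 in Cd11b cells in replicate 1, against 0.28 and 0.24 in replicates 2 and 3. Of the 25 genes opposite at both adjusted p, 24 kept both signs in replicate 1.

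**Figure D1:**
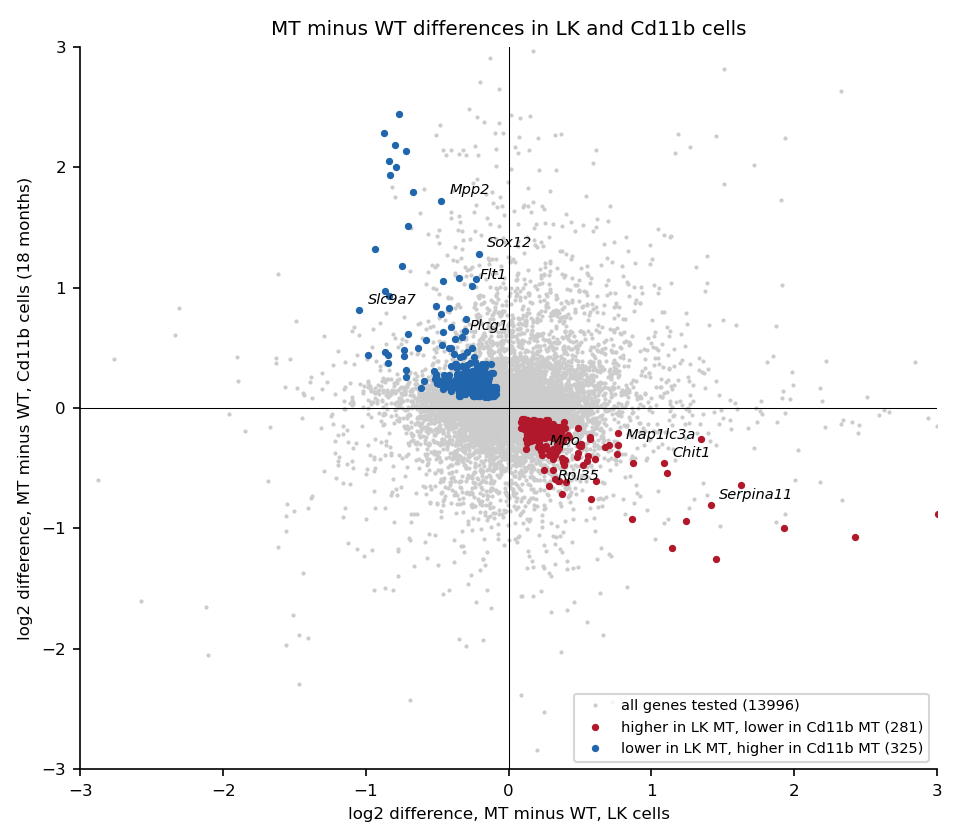
Each point is a gene, with its MT minus WT log2 difference in LK cells on the x axis and in Cd11b cells on the y axis. The stricter class of opposite genes is coloured, 281 higher in LK MT and 325 lower, and fills the lower right and upper left quadrants. The 35 genes beyond 3 log2 units lie outside the axes.

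The length of the transcript moved with these differences. Genes were put in 5 bins of near equal size by transcript length. In LK cells the median difference was 0.19 in the bin of the shortest transcripts and -0.19 in that of the longest, whereas in Cd11b cells it ran the other way, from -0.05 to 0.05. Among genes called for the interaction, the shortest bin held 569 above and 26 below, and the longest 45 above and 878 below. The Spearman correlation with length was -0.46 over 13615 genes, which share libraries and are not independent replicates. With the trends on length and GC content removed from each library, 1847 genes were called, 918 above and 929 below, and 1298 of them were among the 2904. The stricter class then held 482 genes, 237 of them shared. The part of RNA quality or library preparation in this trend was not tested. Counts after this correction are given beside those of the gene lists described most closely.

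**Figure D2:**
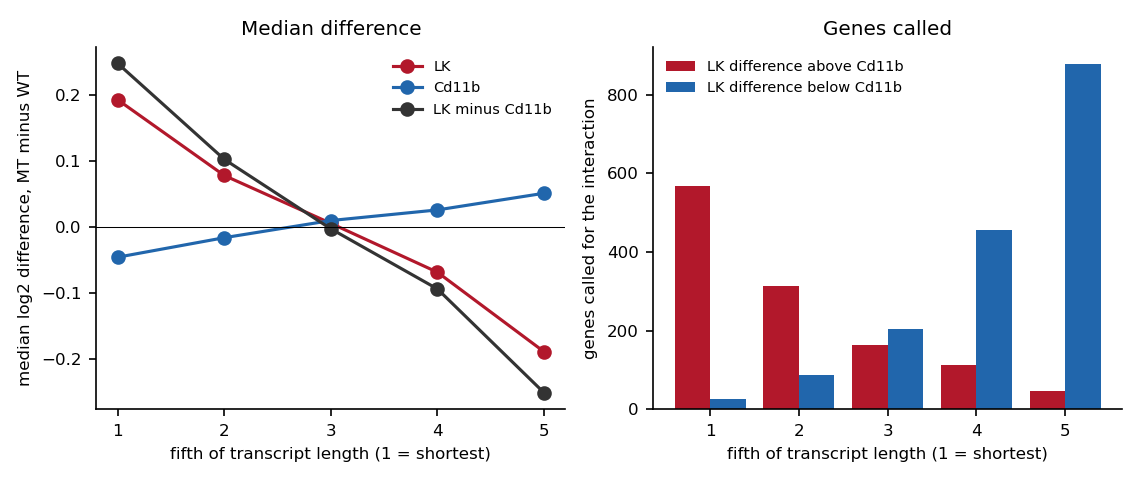
The x axis gives 5 bins of transcript length, shortest first. The left panel plots the median MT minus WT log2 difference of LK cells, of Cd11b cells and of their difference, and the right panel the number of genes called for the interaction, which turns from 569 above against 26 below to 45 above against 878 below.

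The 16 opposite genes with the largest interactions came from no single program. The 8 that were higher in LK MT and lower in Cd11b MT were Gpr27, Serpina11, Sycp2, Chit1, Tmem221, Fam131a, Upp1 and Map1lc3a. The 8 in the reverse direction were Mpp2, Slc9a7, Sox12, Pla2g4c, Clcn2, Ppm1l, Nipa1 and Flt1. By the rule that named them, MT and WT libraries overlapped in neither cell set for any of the 16. The RefSeq promoters (250 bases before to 50 after the transcript start, GRCm38.p6, minus strand for all 4) are shown for the 2 of each direction with the largest interaction that have an entry, since these are the genes with the widest opposition. Capitals mark a match to one of the motifs searched on both strands.
Serpina11, chr12:103989908-103990207: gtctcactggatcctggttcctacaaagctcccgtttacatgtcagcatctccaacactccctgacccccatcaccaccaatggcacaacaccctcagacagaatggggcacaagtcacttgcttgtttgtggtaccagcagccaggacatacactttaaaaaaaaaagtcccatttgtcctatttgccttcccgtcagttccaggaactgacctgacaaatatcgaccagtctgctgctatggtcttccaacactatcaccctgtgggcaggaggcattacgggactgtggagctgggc
Sycp2, chr2:178407609-178407908: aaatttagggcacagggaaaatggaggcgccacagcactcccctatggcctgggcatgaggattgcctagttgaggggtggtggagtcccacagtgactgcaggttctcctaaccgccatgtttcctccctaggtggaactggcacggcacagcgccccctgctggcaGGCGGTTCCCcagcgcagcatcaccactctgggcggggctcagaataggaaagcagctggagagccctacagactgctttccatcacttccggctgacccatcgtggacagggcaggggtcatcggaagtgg
Mpp2, chr11:102088466-102088765: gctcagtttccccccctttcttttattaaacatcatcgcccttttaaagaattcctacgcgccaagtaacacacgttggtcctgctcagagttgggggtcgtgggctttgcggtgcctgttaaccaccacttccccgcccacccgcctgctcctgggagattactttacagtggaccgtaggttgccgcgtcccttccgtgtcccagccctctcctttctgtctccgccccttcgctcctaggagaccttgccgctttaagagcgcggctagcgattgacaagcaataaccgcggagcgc
Slc9a7, chrX:20291778-20292077: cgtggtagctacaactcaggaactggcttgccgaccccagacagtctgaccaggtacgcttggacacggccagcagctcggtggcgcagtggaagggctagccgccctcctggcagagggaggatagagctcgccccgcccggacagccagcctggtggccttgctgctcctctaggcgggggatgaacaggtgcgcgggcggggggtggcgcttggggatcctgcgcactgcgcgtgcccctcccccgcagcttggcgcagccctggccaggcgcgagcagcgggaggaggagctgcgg
The motifs were AP-1 (TGANTCA, in 7.81% of 32851 promoters), the cyclic AMP response element (TGACGTCA, 1.79%), NF-kB (by name, 20.7%), ISRE (by name, 3.44%), E2F (TTTGGCGC, 0.514%, and TTTCCCGC, 1.07%), the inverted pair of heat shock element units (GAANNTTC, 7.86%) and the motif of GATA factors (AGATAA, 11.2%). The only match was to the NF-kB motif in the Sycp2 window. A match is a description of letters and not a site.

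In the reverse group some genes were low in Cd11b cells. Sox12 encodes a transcription factor of the SoxC family. It was at 39.1, 35.2 and 33.1 CPM in LK MT and at 41.5, 42 and 40.6 in LK WT libraries, and at 0.919, 0.891 and 1 in Cd11b MT against 0.377, 0.483 and 0.32 in Cd11b WT. Every MT library lay below WT in LK cells and above it in Cd11b cells (LK -0.21 ± 0.07 SE, edgeR adjusted p 0.0367, Cd11b 1.28 ± 0.17, adjusted p 0.00374, interaction -1.49 ± 0.18, adjusted p 0.00309). Flt1, the receptor of the vascular growth factors VEGF-A and PlGF, was at 11.8, 11.4 and 11.2 CPM in Cd11b MT and 5.11, 5.64 and 6.24 in Cd11b WT. In LK cells it was at 3.29, 3.31 and 3.49 in MT and 4.51, 3.63 and 3.94 in WT, so its Cd11b rise (1.02 ± 0.11, adjusted p 0.00102) stood beside an LK difference that did not pass (-0.26 ± 0.11, adjusted p 0.0914). Nipa1, which encodes a magnesium transporter, rose in Cd11b MT (1.07 ± 0.13, edgeR adjusted p 0.00362) and fell in LK MT (-0.23 ± 0.07, adjusted p 0.0304). Mpp2, a membrane scaffold protein gene, was at 0.265 to 0.552 CPM in Cd11b MT and 0.0905 to 0.15 in Cd11b WT, and at 5.69 to 6.93 against 7.94 to 9.42 in LK cells. It had only 13, 26 and 18 counts in Cd11b MT and 6, 3 and 8 in Cd11b WT. The size of its Cd11b rise and of its interaction thus rests on few counts. Slc9a7, an endosomal sodium-proton exchanger gene, was at 1.12, 0.969 and 0.862 CPM in LK MT and 1.88, 2.09 and 2.13 in LK WT, and at 4.06, 2.69 and 2.11 against 1.84, 1.51 and 1.71 in Cd11b cells. The fall in LK cells passed (-1.05 ± 0.22, edgeR adjusted p 0.00575) and the Cd11b difference did not (0.81 ± 0.22, adjusted p 0.0867). The interactions of Mpp2 and Slc9a7 were -2.19 ± 0.36 and -1.86 ± 0.31 (edgeR adjusted p 0.0061 for each). Within replicate 1 alone, Sox12 differed by -0.09 in LK and 1.09 in Cd11b cells, Flt1 by -0.44 and 1.19, and Slc9a7 by -0.70 and 1.10.

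Several of the genes higher in LK MT were near the detection limit there. Gpr27, an orphan receptor gene, had 2, 5 and 6 counts in LK MT and 0 in every LK WT library, and was at 21, 18.7 and 20.1 CPM in Cd11b MT against 38.7, 24.4 and 22.6 in Cd11b WT. Sycp2, a gene of the meiotic synaptonemal complex, had 6, 8 and 5 counts in LK MT and 1, 3 and 2 in LK WT. At these depths no fold is given for LK cells. Map1lc3a, which encodes an LC3 protein of the autophagosome membrane, had more counts behind it. It was at 7.02, 6.91 and 6.21 CPM in LK MT and 4.03, 4.22 and 3.52 in LK WT, and at 24.7, 22.9 and 21.9 against 26.2, 29.8 and 30.0 in Cd11b cells (interaction 1.07 ± 0.12, edgeR adjusted p 0.00309). Its LK difference was 0.78 in replicate 1 and 0.75 in replicates 2 and 3, whereas its Cd11b difference was -0.09 and -0.41. Map1lc3a starts at base 155276297 of chromosome 2, and Asxl1 at base 153345829 of the same chromosome. Other named genes lie on chromosome 2 too, among them Cst7 (start at base 150570415) and Plcg1 (160731300). The part of such positions in the values of Map1lc3a or of any other named gene was not tested. Chit1, a chitinase gene, was at 1.38, 2.20 and 2.29 CPM in LK MT and 1.14, 0.762 and 0.856 in LK WT, and at 10.4, 7.92 and 9.05 against 12.3, 13.2 and 12.1 in Cd11b cells. Its rise in LK cells passed (1.09 ± 0.21, edgeR adjusted p 0.00339) and its Cd11b difference did not (-0.46 ± 0.17, adjusted p 0.182). Serpina11, Tmem221, Fam131a and Upp1 had interactions of 1.14 to 2.23.

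The 25 genes that passed on both sides make up a small, mixed group, named here after their values were seen. The 10 higher in LK MT and lower in Cd11b MT were Mpo, Prtn3, Ctsg, Rpl35, Dmkn, Sfn, Ifitm2, Cdkn2d, Rab24 and Rfc2. The 15 of the reverse direction were Mpp2, Sox12, Nipa1, Ciita, Plcg1, Padi2, St8sia4, Tmem123, Tmem201, Parp8, Abce1, Nat10, Ptcd3, Ppat and 1190002N15Rik. Rpl35 was at 648, 657 and 679.8 CPM in LK MT and 602, 515 and 512 in LK WT, and at 89, 83.7 and 77.1 against 117, 137 and 139 in Cd11b cells. It was the only ribosomal protein gene of the 25, and its counts can hold reads of near-identical pseudogenes. St8sia4, which encodes a polysialic acid transferase, was at 188, 184 and 176 CPM in Cd11b MT and 144, 128 and 136 in Cd11b WT (0.42 ± 0.06, edgeR adjusted p 0.00498), and at 44.6, 41.3 and 40.1 against 47.2, 52 and 49.8 in LK cells (-0.24 ± 0.06, adjusted p 0.00963). Padi2, an enzyme that turns arginine into citrulline, was at 66.6, 56.2 and 55.8 CPM in Cd11b MT and 44.2, 46.2 and 46.6 in WT, and at 18.5 to 19.6 against 21.1 to 23.3 in LK cells. Ciita, the activator of MHC class II transcription, showed the same pattern, with 35, 26.9 and 29.6 CPM in Cd11b MT and 21.2, 19.4 and 21 in WT, against 2.21, 2.25 and 1.74 and 2.84, 2.76 and 2.37 in LK cells. B lineage genes were also highest in Cd11b MT replicate 1, where their summed level was 315.9 CPM against 95.18 to 124.5 in the other Cd11b libraries, and their part in the Ciita values was not tested. Of the 10 genes on the MHC class II list, Ciita alone was called for the interaction. The other 9 were all above 0 in Cd11b cells, and 8 of them in LK cells too. The median of the list in Cd11b cells was 0.66 in replicate 1 and 0.09 in replicates 2 and 3. With the length and GC correction 34 genes were opposite at both adjusted p, 5 of them shared with the 25.

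The primary granule genes rose in LK MT and had lower values in Cd11b MT. Of the 9 genes on the list, all tested, 8 were called for the interaction, all above, against the 20.7% of all genes. The median difference was 0.33 in LK and -0.36 in Cd11b cells, against 0.02 and 0.01 over all genes tested. Mpo, the myeloperoxidase gene, was at 8031, 9255 and 9429 CPM in LK MT and 7862, 7448 and 7506 in LK WT, and at 633, 555 and 570.3 in Cd11b MT against 719, 759 and 773 in Cd11b WT. All MT libraries lay above WT in LK cells and below it in Cd11b cells (LK 0.23 ± 0.07, edgeR adjusted p 0.0379, Cd11b -0.36 ± 0.07, adjusted p 0.042). Elane, neutrophil elastase, was at 2506, 3163 and 3189 CPM in LK MT and 2364, 1997 and 1988 in LK WT, and at 436, 353 and 351 in Cd11b MT against 489.8, 508 and 511 in Cd11b WT. The LK rise passed (0.48 ± 0.11, edgeR adjusted p 0.00738) and the Cd11b difference did not (-0.40 ± 0.11, adjusted p 0.0848). Prtn3, proteinase 3, was at 1651, 2025 and 2014 CPM in LK MT and 1626, 1378 and 1354 in LK WT, and at 245, 201 and 209.8 against 292, 304 and 302 in Cd11b cells. Ctsg, cathepsin G, fell in Cd11b MT (-0.39 ± 0.08, adjusted p 0.0436) and rose in LK MT (0.23 ± 0.08, edgeR adjusted p 0.0471). Cst7, Nkg7, Prss57 and Ms4a3 were also called, with interactions of 0.53 to 0.69, and Ctsc, which encodes the protease that activates the granule serine proteases, was not (-0.12 ± 0.10, edgeR adjusted p 0.441). All 8 interaction calls held after the length and GC correction. The list median was then 0.16 in LK and -0.34 in Cd11b cells, so the LK rise was smaller. The corrected LK differences of Mpo, Elane, Prtn3 and Ctsg were 0.16, 0.24, 0.16 and -0.01. In LK cells the rise lay almost wholly in replicates 2 and 3, where the list median was 0.44, against 0.04 in replicate 1. In Cd11b cells it was -0.45 and -0.07. In bulk libraries fewer cells of a type and less RNA per cell cannot be told apart.

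These genes moved together, so the promoters of Mpo and Prtn3, chosen after their values were seen, are printed from the same RefSeq table (plus strand). Capitals mark the NF-kB motif, the only motif of those searched that was found.
Mpo, chr11:87793534-87793833: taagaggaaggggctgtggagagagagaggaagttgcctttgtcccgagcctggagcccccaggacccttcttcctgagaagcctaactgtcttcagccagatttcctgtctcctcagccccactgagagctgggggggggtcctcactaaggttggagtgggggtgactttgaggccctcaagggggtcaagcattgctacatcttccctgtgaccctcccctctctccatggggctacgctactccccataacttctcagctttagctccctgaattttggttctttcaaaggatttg
Prtn3, chr10:79879417-79879716: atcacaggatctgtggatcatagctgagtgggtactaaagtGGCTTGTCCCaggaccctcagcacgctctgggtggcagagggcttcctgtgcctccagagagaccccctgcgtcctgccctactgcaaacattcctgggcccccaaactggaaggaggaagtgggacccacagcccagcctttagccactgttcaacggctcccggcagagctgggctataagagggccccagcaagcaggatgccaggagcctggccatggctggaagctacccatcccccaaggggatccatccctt

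Genes of the secondary granules and of mature neutrophils rose in LK MT only in part of the libraries. Of 31 listed genes, 28 were tested and 11 were called for the interaction, all above, against 8.79% of all genes. In LK cells all 28 had a difference above 0 and 19 rose, with a median of 1.81. In Cd11b cells, where these transcripts are abundant, 26 had a difference below 0, the median was -0.09, and 0 were called by edgeR. S100a8, a calprotectin subunit, was at 470.4, 1227 and 1128 CPM in LK MT and 371, 245 and 230.5 in LK WT libraries (LK 1.74 ± 0.33, edgeR adjusted p 0.00531). Fcnb, ficolin B, was at 129, 229 and 229 CPM against 104, 68.6 and 68.5 in LK cells (1.28 ± 0.22, edgeR adjusted p 0.00369). Olfm4, olfactomedin 4, was at 2.59, 6.69 and 6.53 CPM against 1.22, 0.884 and 0.587 (2.51 ± 0.38, edgeR adjusted p 0.00251). In each of these, MT replicate 1 lay nearest to WT. Other members differed less evenly. Ltf, lactoferrin, which was not called, was at 5.01, 107 and 111 CPM in LK MT and 13.1, 2.86 and 2.54 in LK WT. Ly6g, the marker of mature neutrophils, was at 0.0329 to 1.24 CPM in LK MT, 0.0457 to 0.122 in LK WT and 376 to 413 in Cd11b libraries. The summed level of the 28 genes was 1572, 4436 and 4305 CPM in LK MT and 1407, 882.1 and 862.9 in LK WT. Within replicate 1 the LK median was -0.25, with 10 of 28 above 0, and within replicates 2 and 3 it was 2.26. Leaving out 1 library moved the number called from 2, without replicate 2 or 3 of either LK group, to 27 without LK MT replicate 1. After the length and GC correction 7 were called. The part of mature cells in the LK fraction in this rise was not tested.

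**Figure D3:**
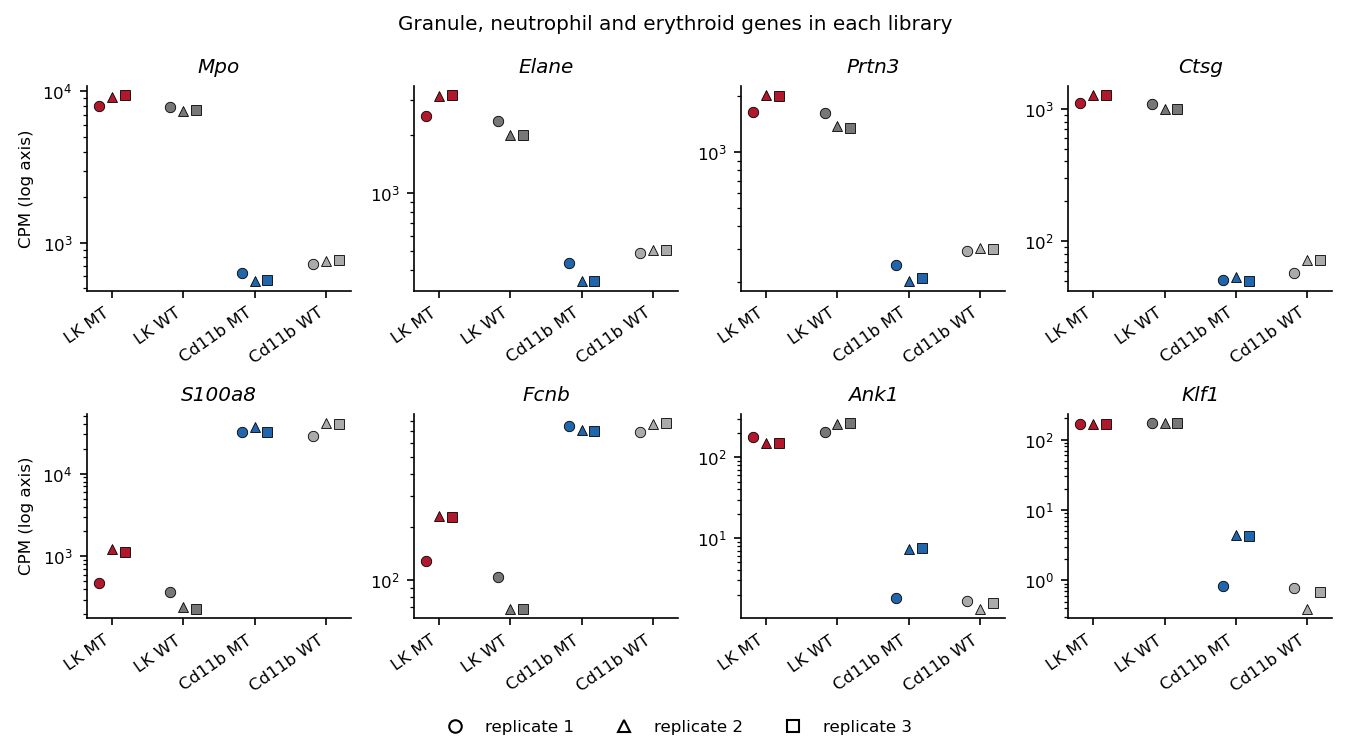
Each panel gives the CPM of 1 gene in every library on a log axis, with symbols for replicates 1, 2 and 3 and colours for the groups. The primary granule genes (Mpo, Elane, Prtn3, Ctsg) are higher in LK MT and lower in Cd11b MT than in WT. Their LK differences are 0.02 to 0.08 in replicate 1 and 0.32 to 0.67 in replicates 2 and 3. S100a8 and Fcnb in LK cells, Ank1 in both cell sets and Klf1 in Cd11b cells also separate mainly in replicates 2 and 3.

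The erythroid list was called mostly below for the interaction, with few calls on either side alone. Of 29 listed genes, 23 were tested and 10 were called, 9 below and 1 above, against 12% and 8.79% of all genes. In LK cells 1 fell (Fech) and 1 rose (Nfe2). The median was -0.13 in LK and 0.67 in Cd11b cells. Ank1, the erythrocyte ankyrin gene, was at 180.3, 152 and 151 CPM in LK MT and 206, 259 and 265 in LK WT, and at 1.84, 7.41 and 7.51 in Cd11b MT against 1.66, 1.33 and 1.60 in Cd11b WT. Klf1, the erythroid transcription factor, was at 166 to 172 CPM in all LK libraries and at 0.837, 4.48 and 4.34 in Cd11b MT against 0.777, 0.392 and 0.696 in Cd11b WT. On the Cd11b side the higher values lay in MT replicates 2 and 3. No erythroid gene passed for MT against WT in Cd11b cells by edgeR. Rhag, Car1, Ermap and Slc4a1, all genes of the red cell, had interactions of -2.26 to -2.47, and Car1 was at 2.92, 17.6 and 17.2 CPM in Cd11b MT. Of the called members, Nfe2, a factor of the platelet and red cell lineages that neutrophils also express, went the other way (0.32 ± 0.06, edgeR adjusted p 0.00782). After the length and GC correction 5 were called, all below. The number was 2 without replicate 2 of the LK MT, LK WT or Cd11b MT group or replicate 3 of either Cd11b group, and 19 without Cd11b MT replicate 1. Within replicate 1 the median was -0.03 in LK and 0 in Cd11b cells.

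Other lineage lists gave fewer calls. Of 17 monocyte genes tested 6 were called, against 20.7% of all genes, and 3 after the length and GC correction. Ly6c2 and Ctsb were above and Ccr2 and F13a1 below. F13a1, the coagulation factor XIII A chain gene, was at 281, 261 and 257 CPM in LK MT and 320.4, 312 and 313 in LK WT, and at 573, 479.5 and 474 against 455, 435 and 446 in Cd11b cells. Of 28 stem and progenitor genes 4 were called, and the largest of these was Flt3, a receptor of multipotent and lymphoid progenitors. Flt3 was at 27.2, 21.8 and 21.6 CPM in LK MT and 35.9, 35.5 and 35.3 in LK WT (-0.60 ± 0.09, edgeR adjusted p 0.00156) and did not pass in Cd11b cells (0.07 ± 0.10, adjusted p 0.749). Genes of B cells and of T and NK cells had medians above 0 in both cell sets over all libraries. They were 0.29 and 0.97 for B and 0.36 and 0.64 for T and NK in LK and Cd11b cells. In each list 1 gene was called (Rag2 and Lck). The signs were not shared within replicate 1, where the B medians were -0.54 in LK and 1.4 in Cd11b cells. Those of T and NK genes were -0.37 and 0.56 there. Within replicates 2 and 3 they were 0.67 and 0.08 for B and 0.66 and 0.47 for T and NK.

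Before the length and GC correction many genes of energy supply and protein synthesis rose in LK MT, and nearly none passed in Cd11b MT. Of 81 oxidative phosphorylation genes 48 rose in LK cells and 0 passed in Cd11b cells by edgeR, and of 82 cytosolic ribosomal protein genes 50 rose in LK cells and 1, Rpl35, fell in Cd11b cells. For the interaction 46 of the first list were called, all above, with medians of 0.25 in LK and -0.08 in Cd11b cells. Of the ribosomal protein genes 26 were called, all above (medians 0.26 and -0.04), and of 38 proteasome genes 9, all above (0.11 and -0.05), against 8.79% of all genes. Ndufb7, a subunit of complex I, was at 94.7, 105 and 108 CPM in LK MT and 83.9, 74.1 and 76.9 in LK WT, and at 98.6, 94.7 and 95.1 against 93.7, 109 and 116 in Cd11b cells. Its MT and WT libraries overlapped in Cd11b cells and not in LK cells (LK 0.39 ± 0.08, edgeR adjusted p 0.00398). Rps14, a protein of the small ribosomal subunit, was at 1171, 1179.8 and 1269 CPM in LK MT and 1007, 859 and 875 in LK WT, and at 391, 357 and 362 against 371, 374 and 388 in Cd11b cells. These lists hold short transcripts, with median lengths of 1046, 1054 and 1895 bases against 3262 over all genes tested. After the length and GC correction the calls were 13 above and 3 below, 3 above, and 3 above and 1 below. The LK medians of the 3 lists were then 0.01, 0.05 and -0.04, so little of the LK rise was left. The Cd11b side also changed sign within the data. Its medians were 0.09, 0.16 and 0.07 in replicate 1 and -0.17, -0.12 and -0.12 in replicates 2 and 3, while the LK medians were above 0 in both. Without LK WT replicate 2 the oxidative phosphorylation count was 9 and the ribosomal protein count 3.

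Genes of nucleolar ribosome biogenesis were called below for the interaction, mostly through LK cells. Of 25 genes 10 fell in LK MT and 1, Bop1, rose in Cd11b MT. For the interaction 8 were called, all below, against 12% of all genes, with medians of -0.11 in LK and 0.08 in Cd11b cells. Within replicate 1 the medians were -0.13 and 0.09, and within replicates 2 and 3 they were -0.07 and 0.07, with no test of either. Mybbp1a, a nucleolar repressor of rRNA genes and binding partner of Myb, was at 353, 343 and 355 CPM in LK MT and 424, 453 and 458 in LK WT (-0.34 ± 0.04, edgeR adjusted p 0.000954), and at 43.3, 43.4 and 43.2 against 38.8, 41.9 and 40.5 in Cd11b cells (0.10 ± 0.04, adjusted p 0.254). Utp20, of the machinery that processes the small subunit, was at 76.6, 70 and 70.7 CPM against 93, 107 and 107 in LK cells, and at 12.5, 13.2 and 12.8 against 11.3, 11.2 and 10.9 in Cd11b cells (interaction -0.71 ± 0.09, edgeR adjusted p 0.00313). For both genes MT and WT separated in each cell set, in opposite directions. Nat10, the acetyltransferase of rRNA and tRNA, is not on this list and is described beside it. It was 1 of the 25 genes, over all genes tested, that passed on both sides. Nat10 was at 88.3, 85.5 and 86 CPM against 98, 100.3 and 103 in LK and at 9.08, 9.23 and 9.24 against 7.39, 7.36 and 8.12 in Cd11b cells. Of the list, Heatr1, Nop56 and Polr1b were also called, with interactions of -0.33 to -0.56. After the length and GC correction 12 of the 25 list members were called, all below. Before the correction the medians of the ribosomal proteins and of the factors that build the ribosome had opposite signs in each cell set.

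Genes of DNA replication and mitosis were called mostly below. Of 24 replication licensing genes 6 were called, all below, against 20.7% of all genes called and 12% below, with medians of -0.05 in LK and 0.08 in Cd11b cells, and 7 after the correction. In LK cells 4 fell, and in Cd11b cells 0 passed by edgeR. Mcm4, of the replicative helicase, was at 293, 286 and 287 CPM in LK MT and 308, 312 and 313 in LK WT, and at 87.3, 94.3 and 95.4 against 80.4, 83.7 and 86.1 in Cd11b cells. Neither side passed alone (LK -0.11 ± 0.04, edgeR adjusted p 0.0759, Cd11b 0.15 ± 0.04, adjusted p 0.108), while the interaction did (-0.25 ± 0.06, adjusted p 0.0151). Mcm2, Mcm3, Mcm6 and Orc2 followed, with interactions of -0.23 to -0.37. The licensing medians were -0.07 and 0.09 in replicate 1 and -0.06 and 0.09 in replicates 2 and 3. Without LK WT replicate 2 or 3 the count was 1. Of 25 mitosis genes 8 were called below and 2 above, and 6 and 2 after the correction. Top2a, topoisomerase II alpha, was at 559, 528 and 533 CPM in LK MT and 642, 739.5 and 752 in LK WT (-0.40 ± 0.06, edgeR adjusted p 0.00213), and did not pass in Cd11b cells (0.14 ± 0.06, adjusted p 0.301). Ube2c, the conjugating enzyme of the anaphase-promoting complex, rose in LK MT (0.22 ± 0.05, edgeR adjusted p 0.00613).

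Genes of heterochromatin and of the Asxl1 complex were lower in LK MT, with medians near 0 in Cd11b MT. Of 31 genes tested of the H3K9 heterochromatin machinery, which writes, reads, erases or acts with methylation of histone H3 lysine 9, 12 were called for the interaction, all below, against 12% of all genes. In LK cells 16 fell and 1 rose, and in Cd11b cells 0 passed by edgeR. The list had 30 of 31 members below 0 in LK and 24 of 31 above 0 in Cd11b cells (medians -0.18 and 0.05). Setdb1, an H3K9 methyltransferase, was at 77.3, 75.4 and 75.6 CPM in LK MT and 84.3, 92.6 and 90.4 in LK WT, and at 57.3, 61.1 and 61.7 against 57.3, 51.9 and 55.3 in Cd11b cells. It fell in LK cells (-0.23 ± 0.05, edgeR adjusted p 0.00659) and did not pass in Cd11b cells (0.13 ± 0.05, adjusted p 0.203). Atrx, Dnmt1, Smarcad1 and Zfp644 had interactions of -0.36 to -0.56. The length and GC correction left 7 called. The Cd11b median was -0.08 in replicate 1 and 0.09 in replicates 2 and 3. Ehmt1 and Ehmt2, which encode the paired H3K9 methyltransferases in the title of the series, were not called (interaction -0.25 ± 0.09, edgeR adjusted p 0.0596, and -0.03 ± 0.07, adjusted p 0.832). Asxl1 itself was at 95.7, 88.3 and 90.7 CPM in LK MT and 102, 115 and 117 in LK WT, and at 293, 299 and 305 against 317, 285 and 299 in Cd11b cells. It fell in LK cells (-0.28 ± 0.06, edgeR adjusted p 0.00468), the Cd11b libraries overlapped (-0.01 ± 0.06, adjusted p 0.968), and the interaction was -0.28 ± 0.08 (adjusted p 0.0313). With length and GC corrected the Asxl1 interaction was -0.02. Counts per gene hold no allele, so Asxl1 values check no label here. Of 11 ASXL and BAP1 partner genes 5 were called, all below, against the same 12%, and 1 after the correction. The calls were Asxl1, Asxl2, Hcfc1, Foxk1 and Ube2o, and the list's transcripts are long (median 5384 bases).

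Some programs had medians above 0 in both cell sets and gave few calls for the interaction. Immediate early genes, which cells transcribe within minutes of a stimulus or of handling, had medians of 0.40 in LK and 0.28 in Cd11b cells, and 24 of 26 were above 0 in each. In LK cells 14 rose and in Cd11b cells 5. In Cd11b cells the median was 0.0 in replicate 1, with 13 of 26 above 0, and 0.47 in replicates 2 and 3. Fos was at 526, 532 and 532 CPM in LK MT and 405, 355 and 349 in LK WT, and at 1592, 2007 and 2015 against 1416, 1096 and 1108 in Cd11b cells. Fosb rose in both, more in Cd11b (1.17 ± 0.14) than in LK cells (0.51 ± 0.13), and the difference between them passed (-0.66 ± 0.19, edgeR adjusted p 0.0319). Klf2 and Klf6 rose in LK cells (1.10 ± 0.14 and 0.58 ± 0.06) and did not pass in Cd11b cells (0.22 ± 0.13 and 0.04 ± 0.06). Their interactions were 0.89 ± 0.19 and 0.53 ± 0.09 (edgeR adjusted p 0.0119 and 0.0061). Heat shock and chaperone genes had medians of 0.19 and 0.21, with 2 of 31 called (Bag3 above and Cct6a below). In LK cells 11 rose and in Cd11b cells 1, and the LK median was 0.04 in replicate 1 and 0.27 in replicates 2 and 3. Hspa1a, the inducible HSP70 gene, was at 15.8, 216 and 206 CPM in LK MT and 14.6, 0.777 and 0.807 in LK WT, and at 27.3, 173 and 169.6 against 21.6, 2.23 and 2.24 in Cd11b cells, so MT and WT replicate 1 were alike in both cell sets. It was not called on either side, and it may share reads with its near-identical copy Hspa1b. Replication-dependent histone genes had medians of 0.54 and 0.33 with 1 of 63 called. In LK cells 19 rose and in Cd11b cells 1, and the Cd11b median was 0.07 in replicate 1 and 0.36 in replicates 2 and 3. Of the 30 inflammatory signalling genes 4 were called, all below. One of them, Ccrl2, a chemokine-binding receptor, rose in Cd11b MT (23.4, 25 and 23.2 against 14.8, 11.8 and 12.1 CPM, 0.88 ± 0.09, edgeR adjusted p 0.00102) and not in LK MT (0.15 ± 0.10, adjusted p 0.256). Of 42 interferon response genes 2 were called. The remaining lists gave 4 of 18 for glycolysis, 4 of 18 for p53 targets, 4 of 16 for DNA methylation, 3 of 20 for cholesterol synthesis, 2 of 21 for the integrated stress and unfolded protein response, 2 of 11 for Polycomb repressive complex 2, 2 of 18 for megakaryocytes and 1 of 16 for basophils, mast cells and eosinophils. These shares lie near or below the 20.7% of all genes.

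**Figure D4:**
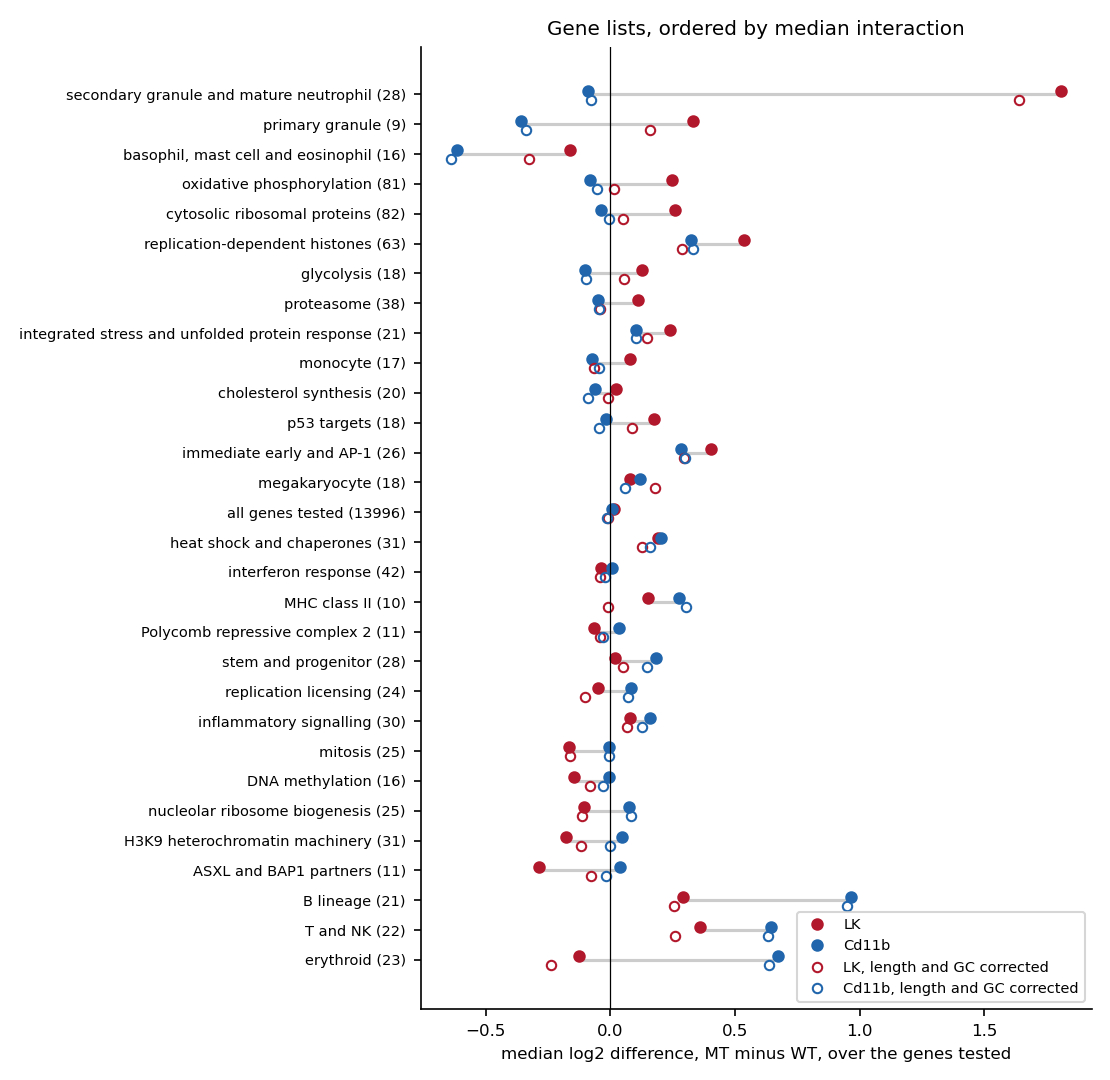
Each row is a gene list with its number of genes tested, ordered by the median interaction. Filled circles give the median MT minus WT log2 difference in LK and Cd11b cells and open circles the same after the length and GC correction. Secondary and primary granule genes lie on the positive side for LK. For Cd11b cells B lineage genes lie furthest to the positive side, followed by erythroid genes and by T and NK genes.

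In the lists with 4 or more called members, the fewest calls came when a replicate 2 or 3 library was left out and the most when a replicate 1 library was. The H3K9 list had 6 calls without LK WT replicate 2 and 21 without Cd11b WT replicate 1. Oxidative phosphorylation had 62 without Cd11b WT replicate 1 and ribosomal proteins 54 without LK WT replicate 1. Nucleolar genes had 5 without LK MT replicate 2, LK WT replicate 2 or 3 or Cd11b MT replicate 3, and 11 without Cd11b MT replicate 1. Mitosis genes ranged from 5 to 14, without LK WT replicate 1, and proteasome genes from 4 to 20, without Cd11b WT replicate 1. The Asxl1 partners had 2 without replicate 2 or 3 of any group. Primary granule genes had 7 or 8 throughout.

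The largest interactions over all genes were mostly of transcripts near 0 in one cell set. Above were Gpr27, Ceacam10, Scrg1, Stfa2l1, Gal, Fpr1, Olfm4 and S100a9. Ceacam10 had 1, 37 and 25 counts in LK MT and 2, 0 and 0 in LK WT, against 3949 to 6725 counts in Cd11b libraries, and Scrg1 had 0, 9 and 7 against 1, 0 and 0. Fpr1, the formyl peptide receptor of neutrophils, was at 0.0329, 0.708 and 0.62 CPM in LK MT and 0.116, 0.0457 and 0.0489 in LK WT. S100a9, the partner of S100a8, rose in LK MT from 299.5, 149 and 146 to 370.0, 1217 and 1185 CPM (2.22 ± 0.44, edgeR adjusted p 0.00685). Among those below were Ccdc74a, Pak6, Pkhd1l1, Fam59a, Slc25a21, Slc26a1 and Acsl6. Ccdc74a had 3, 4 and 6 counts in Cd11b MT and 0 in each Cd11b WT library, and Acsl6 had 3, 14 and 11 against 0, 1 and 3. Slc25a21, a mitochondrial carrier gene, was at 0.286, 1.29 and 1.49 CPM in Cd11b MT and 0.2, 0.0603 and 0.113 in WT, and at 44.5 to 51.4 in all LK libraries.

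TE transcripts, counted per subfamily of repeats over the genome, differed between the cell sets mostly through higher values in LK MT. Of 884 subfamilies tested, 111 (12.6%) were called for the interaction, 88 above (9.95%) and 23 below (2.6%). In LK cells 152 (17.2%) were called for MT against WT and in Cd11b cells 4 (0.452%). Of the 111, 101 (11.4%) had opposite signs and 24 (2.71%) were in the stricter class. Normalizing to the TE counts themselves in place of the gene counts gave 62 above and 45 below of 107, so the share above went from 79.3% to 57.9%. With replicates 2 and 3 summed 0 were called by edgeR and 146 had an unadjusted p under 0.05. Without replicate 3 of the Cd11b MT or the Cd11b WT group the count was 54 and 63, and without replicate 1 of the Cd11b WT or the LK WT group it was 176 and 169. In a fit of all 19 libraries 2 of 976 subfamilies were called.

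L1 elements, the autonomous retrotransposons of the LINE class, gave all the LINE calls. Of 126 L1 subfamilies 26 (20.6%) were called, 25 of them above, with medians of 0.20 in LK and -0.01 in Cd11b cells. Of 534 LTR subfamilies 70 were called, 59 above and 11 below, 33 of them of the ERVK and 18 of the ERV1 superfamily. The DNA transposons had 12 of 157 called, 10 of them below. ORR1A0-int, the internal part of an ERVL-MaLR element, was the only subfamily that passed on both sides. It was at 49.0, 48.8 and 49.1 CPM in LK MT and 45.9, 41.5 and 40.7 in LK WT, and at 72.1, 78.7 and 78 in Cd11b MT against 103, 99.99 and 101 in Cd11b WT. It rose in LK MT (0.20 ± 0.07, edgeR adjusted p 0.0495) and fell in Cd11b MT (-0.41 ± 0.07, adjusted p 0.00138). BGLII_Mus, an LTR, had the largest interaction (1.79 ± 0.39, edgeR adjusted p 0.0057), with 26, 21 and 25 counts in LK MT, 9, 13 and 12 in LK WT, 35, 30 and 37 in Cd11b MT and 73, 58 and 68 in Cd11b WT. RLTR47, LTR16E2, IAPEY4_LTR and IAPEY5_I-int followed at 1.29 to 1.66. Below were Eulor5A, ERVB4_3-I_MM-int, Tigger2b, L1MDb and Kanga1c, at -0.97 to -1.59.

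As a share of each library, LINE counts were higher in LK MT and not in Cd11b MT. They were 8.08, 8.08 and 7.84 per 1000 gene counts in LK MT and 7.17, 6.96 and 6.79 in LK WT, and 6.89, 6.92 and 6.74 in Cd11b MT against 6.76, 7.02 and 7.04 in Cd11b WT. MT and WT separated in LK cells and overlapped in Cd11b cells. The difference of differences was 1.12 (two-sided exact permutation p 0.025 over 400 arrangements, smallest possible 0.005), and 0.125 after adjustment over the total and the 4 classes, so it did not pass. The total was 0.80 (exact permutation p 0.515), SINE 0.60 (0.495), LTR -0.81 (0.25) and DNA -0.06 (0.49). LTR shares were lower in LK MT, at 10.12 to 10.20 against 10.53 to 11.69, although 59 of the 70 called LTR subfamilies lay above. Without Cd11b WT replicate 1 the total was -0.15 and SINE -0.12.

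**Figure D5:**
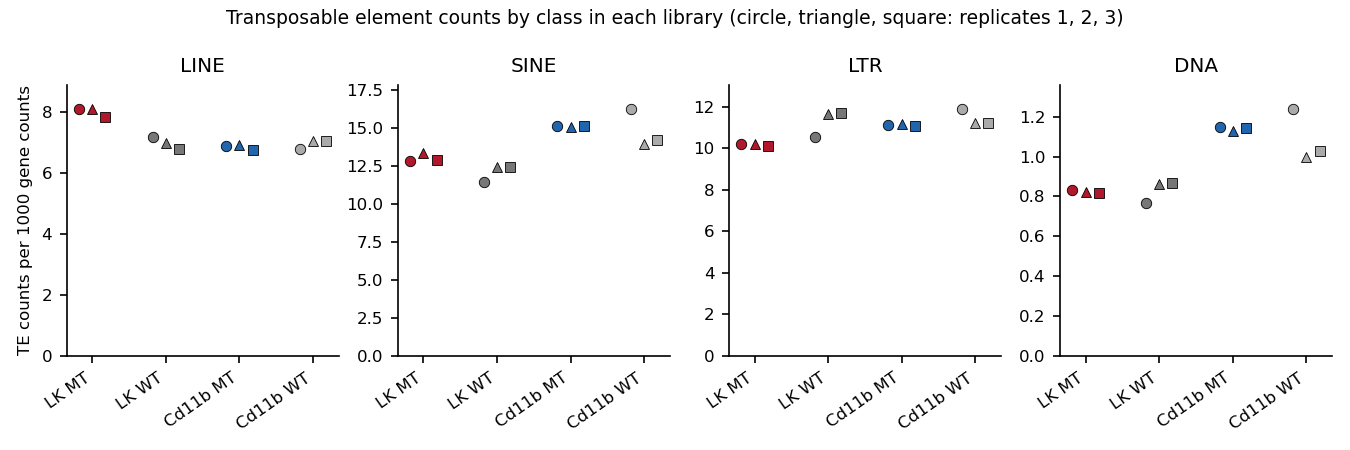
Each panel gives the TE counts of 1 class per 1000 gene counts in every library, from 0, with circles, triangles and squares for replicates 1, 2 and 3. LINE counts lie between 7.84 and 8.08 in LK MT libraries and between 6.74 and 7.17 in the other 9.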

How the data were processed

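For each library the authors deposited counts, whole numbers and not normalized, of genes (by symbol) and of TE subfamilies. Per the labels' protocols, 200 ng of total RNA from a column kit was made into libraries with a directional kit. STAR, HTSeq, DESeq2 and the mm10 build are named in the submitters' processing notes, and how strand and multiply matching reads were treated, and with which annotation, is not given in the sources used here. Reads of overlapping genes, paralogs and repeats may thus be shared.

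Counts as deposited were fitted with edgeR 4.0.16 (quasi-likelihood, robust, filterByExpr on 4 groups, TMM, 8 residual degrees of freedom, R 4.3.3) over 12 libraries, with Benjamini-Hochberg adjustment over all features. TE counts took library sizes and factors from gene counts. CPM use TMM factors. A standard error is the size of the log2 difference divided by the square root of F. These standard errors hold the spread between libraries of a group as well as counting error. On simulated data with 13944 genes, 79 of 100 interactions of 1 log2 unit and 91 of 100 of 2 were recovered with 7 false calls. It is not shown that the simulated libraries held the unequal likeness of replicates seen within the real groups. The recovered and false calls therefore give no error rate for the calls in the real libraries. Lengths and GC came from GENCODE M21 on GRCm38.

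Alternatives used RLE factors, TMM within each cell set, no filter, DESeq2 1.42.0, voom with sample weights (limma 3.58.1), replicate blocks, length and GC correction, all 19 libraries, replicates 2 and 3 summed or alone, TE factors from TE counts and 12 leave-one-out fits. TE shares were also taken on a log2 scale, per TE count, over all listed subfamilies and with replicates 2 and 3 averaged. Genes were named by a rule. It takes Asxl1, Ehmt1, Ehmt2, Itgam and Kit. It takes the 8 opposite genes per direction with the largest interaction, both sides at an unadjusted p under 0.05, an average of 50 counts in the highest group, no overlap and no predicted gene. It adds the 8 largest interactions per direction, up to 5 called members per list and 5 TE subfamilies per direction. 1 gene that the rule takes is not reported here. Others were chosen after their values were seen. The members, the 29 lists and the rule were chosen with earlier results of these data known. The split into replicate 1 and replicates 2 and 3 was added after the data were seen.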

Additional observations from a re-analysis of the deposited data

Results flagged for a closer look

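The LK and Cd11b responses to genotype were compared by the interaction itself, and 2904 genes and 111 TE subfamilies differed between the cell sets by that test. The 16 opposite genes with the largest interactions were chosen by a rule that asked for MT and WT libraries without overlap in both cell sets, so that separation is no result. Their interactions were as follows. Higher in LK MT were Gpr27 (5.35), Serpina11 (2.23), Sycp2 (1.61), Chit1 (1.55), Tmem221 (1.34), Fam131a (1.21), Upp1 (1.14) and Map1lc3a (1.07). Lower were Mpp2 (-2.19), Slc9a7 (-1.86), Sox12 (-1.49), Pla2g4c (-1.43), Clcn2 (-1.35), Ppm1l (-1.32), Nipa1 (-1.30) and Flt1 (-1.27). The fitted values of Gpr27 and Sycp2, which had 0 to 3 counts in the LK WT libraries, depend on the prior count and are no bound.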

How the results depend on the processing

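The calls depended on how replicates 2 and 3 were treated. Summed to 1 library, they left 0 genes and 0 TE subfamilies for the interaction by edgeR (1803 and 146 at an unadjusted p under 0.05), 0 opposite in either kind, and 2 genes in LK and 0 in Cd11b cells. Used alone, they gave 7334 genes for the interaction, 5909 opposite, 7906 in LK and 5237 in Cd11b cells, and 300.0 and 253 TE subfamilies. Leaving out 1 library gave 1129 to 4168 genes for the interaction, 1017 to 3837 opposite, 1672 to 4762 in LK and 28 to 643 in Cd11b cells, and 54 to 176 TE subfamilies, 50 to 157 of them opposite. It moved the difference in TE shares to between -0.145 and 1.36 for the total, 1.03 and 1.22 for LINE, -0.121 and 1.03 for SINE, -1.19 and -0.611 for LTR and -0.137 and -0.0157 for DNA, with the total and SINE below 0 without Cd11b WT replicate 1.

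Among tools, voom with sample weights called 6993 genes for the interaction, 5758 opposite, 8316 in LK and 3876 in Cd11b cells, and 272 and 231 TE subfamilies. DESeq2 called 3359 genes and, in Cd11b cells, 699. With all 19 libraries 1864 genes were called, 1672 opposite and 38 in Cd11b cells, and 2 TE subfamilies, 2 of them opposite. The length and GC correction gave 1847, 1605 opposite and 368 in Cd11b cells.

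Libraries with the same replicate number were not paired by a positive correlation of their deviations from the group means. Of 18 pairs with the same number 0 had deviations correlated above 0.1, and 1 of 12 libraries correlated best with its own number. The correlations ran from -0.435 to 0.0999. The lowest were those of LK MT with LK WT, at -0.435, -0.227 and -0.151 for replicates 1, 2 and 3. A replicate block gave 1940 genes, 84 in Cd11b cells, and 86 TE subfamilies. With the correction it gave 1272, 1123 opposite and 2548 in LK cells. A replicate block by cell type gave 0 and 0 opposite (4076 at an unadjusted p under 0.05), with 1893 in LK and 14 in Cd11b cells.

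Of 152 named genes under 24 alternatives, 2704 values kept direction and side of the threshold, 926 no longer passed, 11 passed only there and 7 changed sign. All 7 were of Ehmt2, at 0.0377 with the correction, 0.0395 with block and correction, 0.00466 with 19 libraries and -0.0616 to 0.0330 with 1 library left out. For the 11 TE subfamilies 214 were unchanged in this sense and 39 no longer passed. RLE factors, TMM within each cell set and no filter kept every gene count for the interaction within 1.5 times. The cause of these shifts was not tested. Depth limits what is seen of genes with under 3 counts in a group.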
